A study of Mus musculus with 48 samples.

Results

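The RNA of 9 transcription factors of the naive pluripotency network was followed from mouse embryonic fibroblasts (MEFs) to induced pluripotent stem cells (iPSCs) and embryonic stem cells (ESCs). The factors were *Esrrb*, *Tfcp2l1*, *Klf2*, *Klf5*, *Tbx3*, *Nr5a2*, *Nr0b1*, *Prdm14*, and *Zfp42*. They were taken by name, with no threshold on their values, from the 24264 transcripts of a read count table, and all 9 were among the 15630 transcripts that had enough reads to be tested.

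The study compared reprogramming by MKOS and OKMS, which are polycistronic cassettes under a doxycycline (dox)-inducible promoter that encode Myc (M), Klf4 (K), Oct4 (O), and Sox2 (S) in the order of the letters. OKMS carries a shorter *Klf4* that lacks residues at the N terminus, and none of the 9 factors is encoded by either cassette. The 48 libraries came from 20 conditions and were prepared by single-cell tagged reverse transcription (STRT), a protocol that reads the 5′ end of each transcript. Each of the 8 sorted populations had 3 libraries and each of the 12 other conditions had 2.

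The transgenic cells derive from TNG ESCs, in which GFP reports the *Nanog* locus and a single intact *Nanog* allele remains. TNG ESCs with the cassette and a CAG-driven rtTA placed in the third intron of *Sp3* are called TNG MKOS and TNG OKMS ESCs. The transgenic MEFs were isolated from chimeric embryos made with them, so that the MEF preparations can also hold host cells. For sorting, transgenic MEFs were mixed into an excess of wild-type (WT) MEFs and kept with dox and vitamin C to day 10. In the labels, the growth protocol names both 10 and 15 days. Populations are named by the CD44-ICAM1- gate (2) or the CD44-ICAM1+ gate (3), by *Nanog*-GFP (NG- or NG+), and by surface E-cadherin (E-CAD). Both cassettes gave E-CAD+ 2NG-, 3NG-, and 3NG+ libraries, whereas the E-CAD- fractions of 2NG- and 3NG- were sequenced for OKMS alone. The other conditions were WT, MKOS, and OKMS MEFs without dox treatment named in the labels, established MKOS and OKMS iPSC clones kept without dox (-dox) or in 2i medium, the iPSC line D6 with a single *piggyBac* MKOS insertion, and TNG, TNG MKOS, TNG OKMS, and E14 ESCs. The labels do not say whether libraries of a condition came from separate cultures, so p-values measure the spread between libraries, which may be technical.

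Naive pluripotency is the state of the preimplantation epiblast and of mouse ESCs kept with LIF or 2i, and it rests on a network of transcription factors that activate each other. Within this network, TFCP2L1, KLF5, and TBX3 act downstream of LIF signals, KLF2 is stabilized when MEK is inhibited, and *Esrrb* is repressed by TCF7L1 until GSK3 is inhibited. ESRRB, NR5A2, and NR0B1 are orphan nuclear receptors, PRDM14 represses *Fgfr* and DNA methyltransferase genes, and *Zfp42*, also known as *Rex1*, is a widely used marker of this state.

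The libraries held 1429717 to 14174725 transcript reads (median 6243255), and levels are given as CPM, the count divided by this total on a scale common to all libraries. A count of 3 reads corresponded to 0.212 to 2.10 CPM, a floor that covers counting error only. The labels were checked against marker genes. The 9 fibroblast markers summed to 3733 to 6031 CPM in MEFs and to 202 to 1492 CPM in the sorted populations, and *Nanog* had no reads in any MEF library. The shallowest library was OKMS E-CAD+ 3NG+ replicate 2. Of the 24 sorted libraries, 7 are absent from the averages that accompany the study. For the 9 factors, calls lost without them are given with both values, and calls gained are given with values or as counts. Results of the other genes and marker lists were not recomputed without them.

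*Zfp42* was counted with caution, because only 64.9% of its reads mapped uniquely, whereas the shares of the other 8 factors lay between 93.0% and 100%. Multireads were assigned to their most 5′ exonic hit, so *Zfp42* counts may include reads of near-identical copies.

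The sequences upstream of 4 of the factors with an entry are shown, and no result below rests on them. The 4 were picked by their results: *Esrrb*, *Zfp42*, and *Tfcp2l1* were lower in OKMS than in MKOS 3NG- cells, and *Nr0b1* was not called there. Each is the 250 bases before a transcript start given by RefSeq (GRCm38.p6), on the strand of the gene, from a table that held such an entry for 6 of the 9 factors. Capitals mark matches, on either strand, to the letters of 4 motifs: the element AAGGTCA bound by ESRRB and NR5A2, the STAT3 site TTCNNNGAA, the KLF box CCNCACCC, and the OCT4 octamer ATTTGCAT. *Esrrb* lies at chr12:86361117-86521628 on the plus strand, *Zfp42* at chr8:43295067-43307009 on the minus strand, *Tfcp2l1* at chr1:118627923-118685168 on the plus strand, and *Nr0b1* at chrX:86191775-86195947 on the plus strand.
Esrrb: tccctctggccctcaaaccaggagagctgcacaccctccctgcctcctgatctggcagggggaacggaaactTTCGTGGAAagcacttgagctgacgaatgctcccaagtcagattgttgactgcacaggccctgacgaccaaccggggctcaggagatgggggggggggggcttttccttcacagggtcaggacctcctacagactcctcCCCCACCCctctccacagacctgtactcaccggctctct
Zfp42: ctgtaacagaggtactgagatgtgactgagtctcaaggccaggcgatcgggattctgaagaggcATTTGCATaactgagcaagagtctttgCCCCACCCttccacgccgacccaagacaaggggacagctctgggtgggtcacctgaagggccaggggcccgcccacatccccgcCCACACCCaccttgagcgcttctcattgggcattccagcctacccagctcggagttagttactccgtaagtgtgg
Tfcp2l1: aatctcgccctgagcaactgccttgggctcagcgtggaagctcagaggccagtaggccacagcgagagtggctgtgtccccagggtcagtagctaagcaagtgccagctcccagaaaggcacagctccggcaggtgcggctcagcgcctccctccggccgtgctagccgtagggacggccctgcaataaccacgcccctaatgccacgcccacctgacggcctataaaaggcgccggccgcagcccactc
Nr0b1: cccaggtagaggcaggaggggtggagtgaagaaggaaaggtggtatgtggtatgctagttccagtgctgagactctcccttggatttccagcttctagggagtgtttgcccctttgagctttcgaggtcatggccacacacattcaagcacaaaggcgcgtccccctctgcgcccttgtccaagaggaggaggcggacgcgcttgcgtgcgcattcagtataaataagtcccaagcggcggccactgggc

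The *Esrrb* stretch, chr12:86360867-86361116, holds TTCGTGGAA at bases -178 to -170 and CCCCACCC at bases -39 to -32, counted from the start. The *Zfp42* stretch, chr8:43307010-43307259, holds ATTTGCAT at bases -186 to -179 and KLF boxes at bases -159 to -152 and -75 to -68. No match was present in the *Tfcp2l1* stretch, chr1:118627695-118627944, or the *Nr0b1* stretch, chrX:86191525-86191774. Of 32851 such promoters, 4.08% hold AAGGTCA, 7.02% TTCNNNGAA, 14.9% CCNCACCC, and 1.60% ATTTGCAT. Among stretches not shown, a second *Esrrb* start has a KLF box at bases -105 to -98. A second start of *Nr5a2*, which was not called between the cassettes, has a KLF box at bases -163 to -156. A match describes the letters and was not tested as a binding site. Whether matches go with the cassette difference was not tested.

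MEFs and ESCs set the ends of the scale. *Esrrb*, *Tfcp2l1*, *Nr5a2*, *Nr0b1*, *Prdm14*, and *Zfp42* were at or near 0 in MEFs and rose to high levels in ESCs, whereas *Klf2*, *Klf5*, and *Tbx3* were already transcribed in MEFs. TNG MKOS ESCs were compared with MKOS MEFs by edgeR's quasi-likelihood test over all tested transcripts, with a Benjamini-Hochberg false discovery rate (FDR) of at most 0.05. In this comparison, 8 of the 9 factors were higher, against 17.5% of all tested transcripts, and *Tbx3* was lower, against 15.7%. Of TNG OKMS ESCs against OKMS MEFs, 8 were higher (18.3% of all), and *Tbx3* did not pass.

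*Nr5a2* and *Prdm14* had 0 reads in all 6 MEF libraries. Against the floor of 3 reads over the MEF libraries, *Nr5a2* was at least 62.1-fold higher in TNG MKOS ESCs and at least 71.0-fold higher in TNG OKMS ESCs. For *Prdm14*, the bounds were 22.3-fold and 48.6-fold. *Esrrb* had 6 reads in MKOS MEF replicate 1, 1 read in OKMS MEF replicate 1, and none in the other 4 MEF libraries. Its 8 ESC libraries lay between 85.1 and 194 CPM, with a median of 160 CPM. The groups were far apart, and the log2 difference between TNG MKOS ESCs and MKOS MEFs was 8.29 ± 0.69 (SE; FDR = 5.2e-12). *Nr0b1*, which encodes the corepressor DAX1, had 5 reads in MKOS MEF replicate 1 and none in the other MEF libraries, and its ESC libraries lay between 65.5 and 129 CPM. *Zfp42* reached 1.95 CPM at most in MEFs and 611 CPM at least in ESCs.

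*Klf2* measured 3.85 and 9.86 CPM in WT MEFs, 19.2 and 25.3 CPM in MKOS MEFs, and 12.4 and 23.2 CPM in OKMS MEFs. It was 9.45-fold higher in TNG MKOS ESCs than in MKOS MEFs and 9.06-fold higher in the OKMS pair. *Klf5*, a Krüppel-like factor also used by epithelia, measured 7.49 to 25.9 CPM in MEFs and 31.8 to 101 CPM in ESCs, so that its ranges did not overlap. Its OKMS difference of 1.69 ± 0.49 (log2 ± SE; FDR = 0.00647) lost the call without TNG OKMS ESC replicate 1 (FDR = 0.0614) or without OKMS MEF replicate 1 (FDR = 0.0906).

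*Tbx3*, a T-box factor also active in mesenchyme, behaved differently from the rest. It measured 19.9 and 31.0 CPM in MKOS MEFs and 1.56 and 6.69 CPM in TNG MKOS ESCs, a log2 difference of -2.72 ± 0.58 (SE; FDR = 0.000305). OKMS MEFs had 18.6 and 24.2 CPM and TNG OKMS ESCs 31.9 and 29.9 CPM, a difference of 0.49 ± 0.53 (FDR = 0.499). The parental TNG ESCs had 6.70 and 9.59 CPM and E14 ESCs 18.8 and 23.3 CPM. *Tbx3* thus varied among ESC lines from 1.56 to 31.9 CPM, and the ESC range covered the range of WT MEFs.

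**Figure D1:**
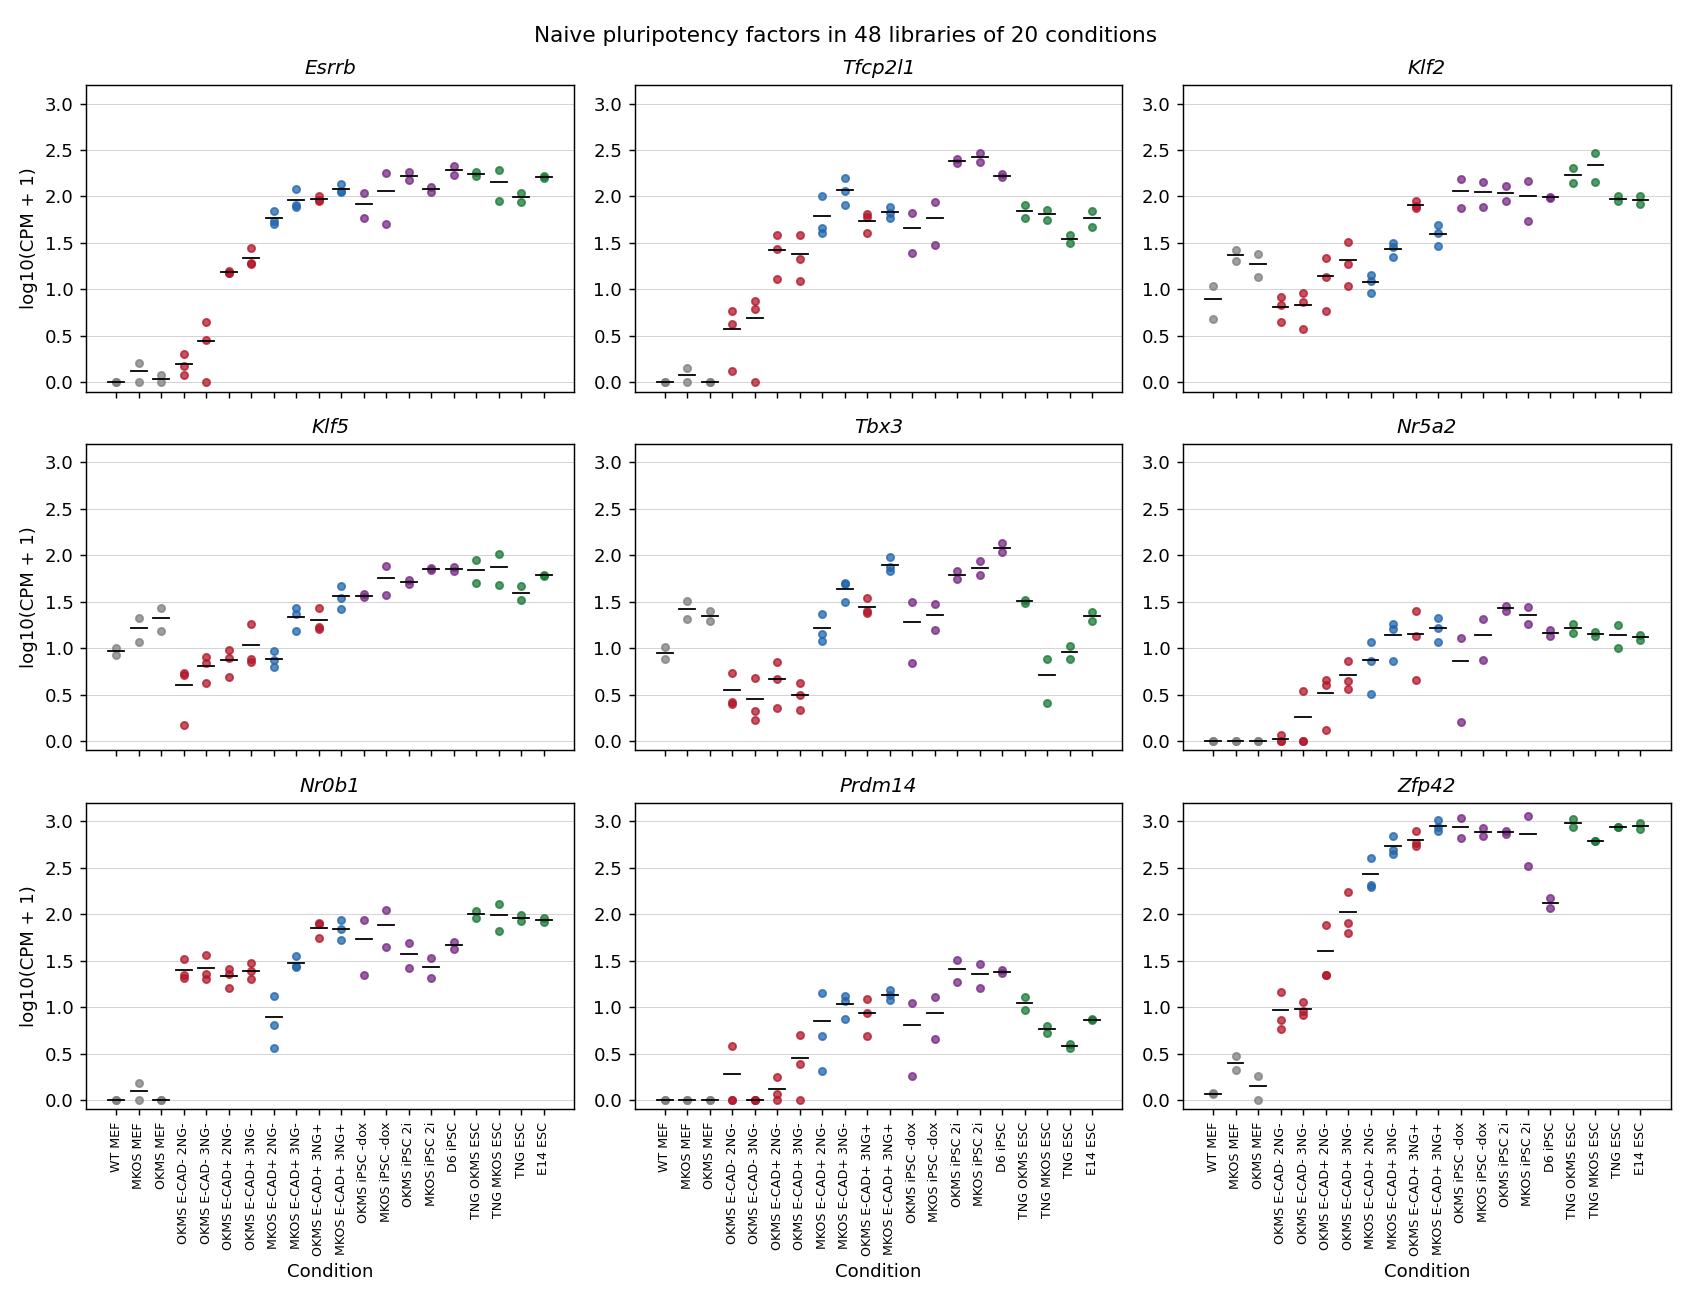
Level of each of the 9 factors as log10(CPM + 1), with a point for each of the 48 libraries, grouped by the 20 conditions, and a bar at log10(mean CPM + 1) of each condition. Grey marks MEFs, red sorted OKMS cells, blue sorted MKOS cells, purple iPSCs, and green ESCs. *Esrrb* and *Zfp42* climb in steps from OKMS E-CAD- to OKMS E-CAD+ to MKOS cells, while *Nr0b1* is already at 19.0 to 35.6 CPM in OKMS E-CAD- cells.

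From MEFs to the first E-CAD+ intermediates, the factors that MEFs lacked were gained and those that MEFs expressed were not. In MKOS 2NG- cells, 6 factors were higher than in MKOS MEFs (15% of all tested transcripts were higher), namely *Esrrb*, *Tfcp2l1*, *Nr5a2*, *Nr0b1*, *Prdm14*, and *Zfp42*. *Klf5* was lower at -1.29 ± 0.45 (log2 ± SE; FDR = 0.0303; 12% of all were lower), while *Klf2* at -1.06 ± 0.46 (FDR = 0.0786) and *Tbx3* at -0.74 ± 0.48 (FDR = 0.26) did not pass by edgeR, and DESeq2 called *Klf2* (-1.21; FDR = 0.0384). The *Klf5* call was lost without MKOS 2NG- replicate 1 (FDR = 0.0967), MKOS 2NG- replicate 3 (FDR = 0.0715), or MKOS MEF replicate 1 (FDR = 0.486). In OKMS E-CAD+ 2NG- cells, 5 factors were higher than in OKMS MEFs (15.7% of all) and *Klf5* and *Tbx3* were lower (13.5% of all). *Prdm14* was the factor gained in MKOS that did not pass here (at least 2.44-fold higher; FDR = 0.121), with 12 reads in 3 libraries against 0 in OKMS MEFs. *Tbx3* fell by 2.32 ± 0.51 (FDR = 0.000528). The *Klf5* difference of -1.55 ± 0.46 (FDR = 0.00869) lost the call without OKMS 2NG- replicate 3 (FDR = 0.0602) or OKMS MEF replicate 2 (FDR = 0.129), and *Nr5a2* lost it without OKMS MEF replicate 2 (FDR = 0.0653). In bulk RNA, fewer expressing cells and less RNA per cell cannot be told apart.

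MKOS and OKMS cells of the same gate were then compared, which asks whether the network is at the same stage in cells with the same surface markers. In the 2NG- gate, *Esrrb*, *Zfp42*, *Tbx3*, and *Prdm14* were lower in OKMS than in MKOS cells, and *Nr0b1* was higher. The 4 lower factors stand against 2.84% of all tested transcripts that were lower, and the higher factor against 2.23%. In the 3NG- gate, *Esrrb*, *Zfp42*, *Tbx3*, and *Tfcp2l1* were lower (1.38% of all) and none was higher. The median log2 difference of the 9 factors was -1.24 in 2NG- and -1.99 in 3NG- cells, where that of all tested transcripts was -0.00295 and -0.00739.

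*Esrrb* measured 14.1, 13.9, and 15.0 CPM in OKMS 2NG- libraries and 49.0, 53.7, and 69.4 CPM in MKOS 2NG- libraries. The libraries did not overlap, and OKMS cells were 3.72-fold lower (log2 difference -1.90 ± 0.38 SE; FDR = 0.00146). In the 3NG- gate, *Esrrb* measured 18.0, 17.9, and 27.1 CPM with OKMS and 79.5, 75.1, and 119 CPM with MKOS. OKMS cells were 3.98-fold lower (-1.99 ± 0.38; FDR = 0.00153), a log2 gap close to that in 2NG- cells. Relative to the mean of the 4 ESC lines, *Esrrb* stood at 10.0% and 14.7% in OKMS and at 40.1% and 63.7% in MKOS cells.

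*Zfp42* showed the same order with more spread. Its OKMS 2NG- libraries had 21.1, 21.0, and 75.8 CPM and its MKOS 2NG- libraries 195, 203, and 406 CPM, a 6.08-fold difference (-2.60 ± 0.43; FDR = 0.000123). In 3NG- cells, OKMS libraries had 78.6, 62.1, and 171 CPM and MKOS libraries 484, 440, and 694 CPM, a 4.72-fold difference (-2.24 ± 0.43; FDR = 0.00153). In both gates, replicate 3 of the OKMS cells was the highest of its group and still below each MKOS library.

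*Tbx3* showed the largest gap among the 9 factors in the 3NG- gate. MKOS 3NG- libraries had 30.7, 47.7, and 49.5 CPM and OKMS 3NG- libraries 3.21, 2.14, and 1.18 CPM, the last 2 from 9 and 5 reads. OKMS cells were 16.8-fold lower (-4.07 ± 0.52; FDR = 3.93e-06), and below all 6 MEF libraries, whose lowest value was 6.76 CPM. In 2NG- cells, OKMS libraries had 6.14, 1.29, and 3.67 CPM and MKOS libraries 13.4, 22.1, and 11 CPM, a log2 difference of -1.87 ± 0.48 (FDR = 0.0128). This 2NG- call was lost without MKOS 2NG- replicate 2 (FDR = 0.0942), OKMS 2NG- replicate 2 (FDR = 0.0805), or OKMS 2NG- replicate 3 (FDR = 0.0581). MKOS 3NG- cells exceeded the ESC mean, at 266% of it.

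*Tfcp2l1* also exceeded the ESC mean in MKOS 3NG- cells, at 209% of it. MKOS 2NG- cells stood at 110%, but their libraries overlapped those of ESCs, which lay between 30.8 and 79.8 CPM. MKOS 3NG- libraries had 80.0, 113, and 158 CPM and OKMS 3NG- libraries 20.4, 11.4, and 37.4 CPM. OKMS cells were 4.60-fold lower (-2.20 ± 0.51; FDR = 0.0109), a call that was lost without OKMS 3NG- replicate 1 (FDR = 0.0707), OKMS 3NG- replicate 2 (FDR = 0.0999), or MKOS 3NG- replicate 3 (FDR = 0.0596). In 2NG- cells, the difference of -1.24 ± 0.50 did not pass (FDR = 0.154), with 11.9 to 37.7 CPM in OKMS and 39.7 to 98.9 CPM in MKOS libraries.

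*Prdm14* was barely detected in OKMS 2NG- cells, with 1, 0, and 11 reads, while MKOS 2NG- libraries had 38, 7, and 98 reads. The log2 difference of -3.64 ± 1.04 passed (FDR = 0.0317), but MKOS levels spread from 1.03 to 13.3 CPM. Without the 7 libraries that the study's averages leave out, it did not pass (-4.22; FDR = 0.0796). It also lost the call without OKMS 2NG- replicate 1 (FDR = 0.125), OKMS 2NG- replicate 2 (FDR = 0.102), or MKOS 2NG- replicate 3 (FDR = 0.235). In 3NG- cells, OKMS libraries had 1.43, 0, and 4.0 CPM and MKOS libraries 6.48, 10.5, and 12.2 CPM (-2.30 ± 0.93; FDR = 0.222).

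*Nr0b1* ran the other way. OKMS 2NG- libraries had 21.6, 24.8, and 14.9 CPM and MKOS 2NG- libraries 2.65, 5.46, and 12.2 CPM, so that OKMS cells were 3.19-fold higher (1.68 ± 0.44; FDR = 0.0176). The call was lost without MKOS 2NG- replicate 1 (FDR = 0.144), MKOS 2NG- replicate 2 (FDR = 0.0965), OKMS 2NG- replicate 1 (FDR = 0.0523), or OKMS 2NG- replicate 2 (FDR = 0.0535). In 3NG- cells, the ranges of the cassettes overlapped, from 19.3 to 28.7 CPM with OKMS and from 26.4 to 34.5 CPM with MKOS (-0.17 ± 0.41; FDR = 0.922). From 2NG- to 3NG- within MKOS, *Nr0b1* was the factor called by edgeR. It rose by 2.03 ± 0.44 on the log2 scale (FDR = 0.0189; 0.352% of all tested transcripts rose). That call was lost without MKOS 2NG- replicate 1 (FDR = 0.235), MKOS 2NG- replicate 2 (FDR = 0.195), or MKOS 3NG- replicate 2 (FDR = 0.0732). Beside it, *Klf5* (1.56 ± 0.41; FDR = 0.0859), *Tbx3* (1.37 ± 0.44; FDR = 0.257), *Klf2* (1.19 ± 0.41; FDR = 0.356), and *Zfp42* (0.92 ± 0.41; FDR = 0.63) had unadjusted p-values below 0.05 in the same step. DESeq2 called *Klf5* (1.56; FDR = 0.0331) as well as *Nr0b1*. Within OKMS, none of the 9 factors passed from 2NG- to 3NG- by edgeR or DESeq2 (0.0384% of all by edgeR), and *Zfp42* was the single factor with an unadjusted p below 0.05 (1.29 ± 0.42).

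*Klf2*, *Klf5*, and *Nr5a2* were not called between the cassettes in either gate. *Klf2* differed by 0.43 ± 0.42 in 2NG- and by -0.29 ± 0.41 in 3NG- cells, *Klf5* by 0.02 ± 0.43 and -0.92 ± 0.41, and *Nr5a2* by -1.24 ± 0.77 and -1.50 ± 0.75. *Nr5a2* rested on 1 to 43 reads per OKMS library in these gates. *Klf5* stayed low in both 2NG- populations, at 6.47 ± 2.38 CPM with OKMS and 6.69 ± 1.49 CPM with MKOS (SD, n = 3).

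**Figure D2:**
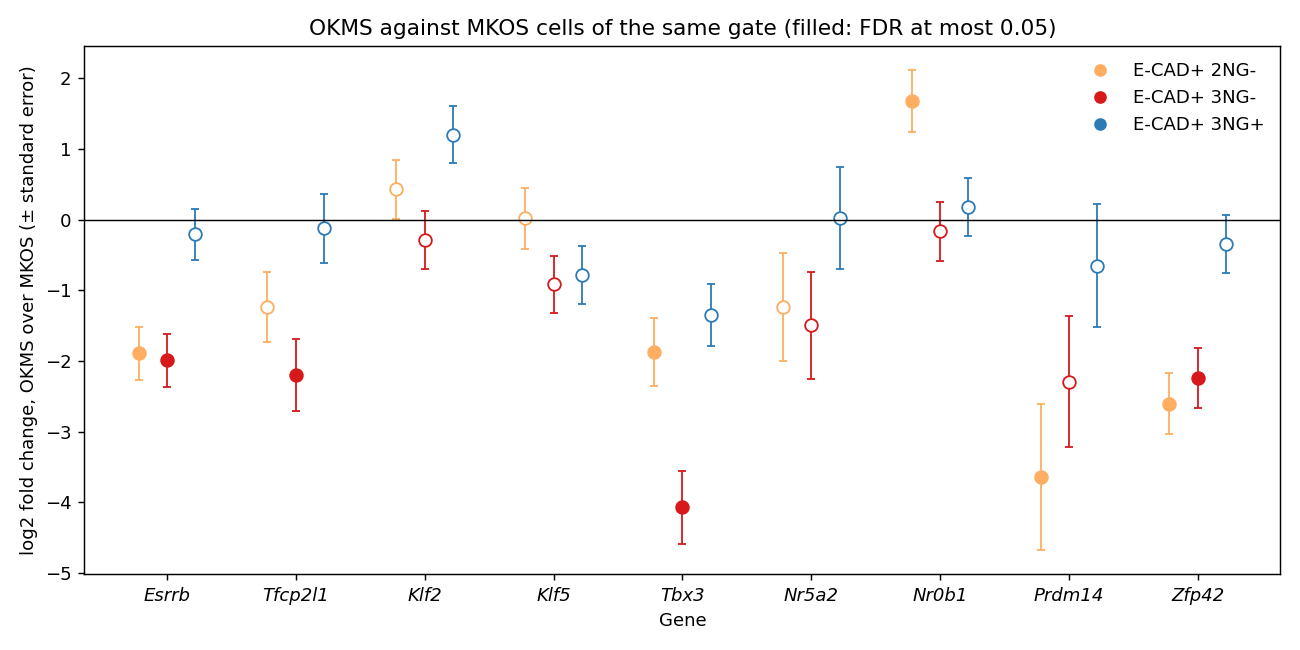
Log2 fold change of OKMS over MKOS cells for each factor in the E-CAD+ 2NG- (orange), 3NG- (red), and 3NG+ (blue) gates, with bars of 1 standard error (3 libraries per population) and filled symbols for an FDR of at most 0.05. *Esrrb* and *Zfp42* sit near -2 to -2.6 in both NG- gates and at -0.21 and -0.34 in 3NG+ cells, and *Nr0b1* is the factor above 0 in 2NG- cells that passed the test.

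Of 25 other pluripotency genes, 4 were lower and 2 higher in OKMS than in MKOS 2NG- cells (2.84% and 2.23% of all). In 3NG- cells, 5 were lower (1.38% of all). The genes called in 2NG- cells included *Tcl1*, a cofactor of AKT (-3.78 ± 0.55), and *Pou5f1*, which encodes OCT4 (-1.77 ± 0.35), as well as *Tcf7l1*, the repressor named above, which was higher (1.87 ± 0.43). The 25 genes summed to 1464, 1614, and 4419 CPM in OKMS 2NG- and to 2213, 3187, and 7055 CPM in OKMS 3NG- libraries. The MKOS sums were 3447 to 4690 CPM in 2NG- and 8753 to 11492 CPM in 3NG- libraries. A single OKMS library thus stood well above the others in each gate. *Pou5f1*, *Klf4*, and *Sox2* reads may include cassette RNA. *Pou5f1* comes first in OKMS alone, where the cassette could share the 5′ end that STRT reads. *Klf4* and *Sox2* come first in neither cassette. The share of cassette reads was not tested. Other cell type markers moved as well. The 9 fibroblast markers summed to 551 to 1492 CPM in MKOS and to 202 to 472 CPM in OKMS E-CAD+ NG- libraries. The 6 formative and primed epiblast markers were *Fgf5*, *Otx2*, *Pou3f1*, *Dnmt3b*, *Sox3*, and *T*, and 2 of them had no reads in MKOS 2NG- cells. They summed to 34.8, 45.8, and 396 CPM in OKMS 2NG- libraries and to 23.2 to 26.3 CPM in MKOS 2NG- libraries. A single OKMS library thus stood far above the others. Of these 6 markers, 3 were higher in OKMS 2NG- cells (2.23% of all) and 0 were called in 3NG- cells by edgeR (3 at an unadjusted p below 0.05). In 3NG- cells the sums overlapped, at 69.7, 160, and 510 CPM in OKMS and 80.3 to 146 CPM in MKOS libraries. The calls of these markers were not recomputed without single libraries. Of 6 trophoblast markers, 1 was higher in OKMS 2NG- cells (2.23% of all). None of 5 primitive endoderm markers was called between the cassettes by edgeR. At an unadjusted p below 0.05 stood 2 of them in 2NG- and 3 in 3NG- cells, with median log2 differences of 1.62 and 2.73. In 3NG- cells they summed to 4.76, 18.2, and 60.7 CPM in OKMS and to 2.17 to 3.78 CPM in MKOS libraries. In 2NG- cells the sums overlapped, at 0 to 40.4 CPM in OKMS and 0.677 to 7.45 CPM in MKOS libraries. The part of these marker lists in the differences was not tested.

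OKMS cells that had not gained E-CAD were compared with E-CAD+ cells of the same gate. *Esrrb*, *Tfcp2l1*, and *Zfp42* were higher in E-CAD+ cells of both gates, and *Nr0b1* had overlapping ranges on both sides. In 2NG- cells, 4 of the 9 factors were higher in E-CAD+ cells (1.69% of all tested transcripts), the above and *Nr5a2*. In 3NG- cells, 4 were higher (1.59% of all), the above and *Klf2*. These comparisons use the same OKMS E-CAD+ libraries as those between the cassettes.

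*Esrrb* had 1, 3, and 3 reads in E-CAD- 2NG- libraries, or 0.190, 1.03, and 0.489 CPM, against 13.9 to 15.0 CPM in E-CAD+ cells (4.96 ± 0.59; FDR = 7.27e-07). In 3NG- cells, E-CAD- libraries had 1.82, 3.49, and 0 CPM and E-CAD+ libraries 17.9 to 27.1 CPM (3.72 ± 0.49; FDR = 6.3e-06). *Esrrb* was therefore near the floor in E-CAD- cells. *Tfcp2l1* reached 6.53 CPM at most in the 6 E-CAD- libraries and 11.4 CPM at least in the 6 E-CAD+ NG- libraries, with differences of 3.40 ± 0.62 (FDR = 0.000841) in 2NG- and 2.58 ± 0.58 (FDR = 0.00799) in 3NG- cells. The 3NG- call of *Tfcp2l1* was lost without OKMS E-CAD- 3NG- replicate 2 (FDR = 0.069) or OKMS E-CAD+ 3NG- replicate 3 (FDR = 0.1).

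*Zfp42* was present in E-CAD- cells, at 13.7, 4.81, and 6.36 CPM in 2NG- and 7.27, 8.02, and 10.3 CPM in 3NG- libraries. E-CAD+ cells were higher by 2.41 ± 0.47 (FDR = 0.00156) in the 2NG- gate. There the 75.8 CPM of E-CAD+ replicate 3 stood apart from 21.0 and 21.1 CPM in the others, and without this library the difference was 1.39 (FDR = 0.0843). It was 1.15 (FDR = 0.178) without all 7 libraries that the study's averages leave out. In the 3NG- gate, E-CAD+ cells were higher by 3.73 ± 0.49 (FDR = 5.94e-06). *Klf2* was higher by 1.85 ± 0.46 (FDR = 0.02) in E-CAD+ 3NG- cells, from 10.0 to 31.3 CPM against 2.79 to 8.17 CPM. This call was lost without the 7 libraries (1.58; FDR = 0.193), without OKMS E-CAD- 3NG- replicate 1 (FDR = 0.0699) or replicate 2 (FDR = 0.161), or without OKMS E-CAD+ 3NG- replicate 3 (FDR = 0.271).

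*Nr5a2* had 1 read in the 3 E-CAD- 2NG- libraries together and 21, 1, and 43 reads in E-CAD+ 2NG- libraries, a ratio of levels of 40.2 (95% counting interval 6.97 to 1612). Its call (FDR = 0.0298) was lost without the 7 libraries (FDR = 0.0902) and without any of 5 of the 6 libraries compared, with FDR from 0.0646 to 0.132, the exception being OKMS E-CAD+ 2NG- replicate 2. *Prdm14* had 17 reads in E-CAD- 2NG- replicate 3 and none in the other 5 E-CAD- libraries. In the 3NG- gate, E-CAD+ cells had 33 reads in 3 libraries, which made *Prdm14* at least 7.05-fold higher, but it did not pass by edgeR (FDR = 0.0942), while DESeq2 called it (FDR = 0.0208).

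*Nr0b1* measured 32.3, 19.6, and 21.4 CPM in E-CAD- 2NG- and 19.0, 35.6, and 21.8 CPM in E-CAD- 3NG- libraries, and these ranges overlapped those of E-CAD+ cells. The differences were -0.16 ± 0.42 (FDR = 0.937) and 0.03 ± 0.42 (FDR = 1), with a 95% interval of -0.80 to 0.85 for the second. The 4 OKMS NG- populations stood at 22.1% to 27.4% of the ESC mean. Between OKMS MEFs, with 0 reads, and E-CAD- 2NG- cells, *Nr0b1* rose at least 118-fold. *Tfcp2l1* (at least 10.8-fold) and *Zfp42* (4.10 ± 0.80; FDR = 0.000165) also rose in this step (11.7% of all tested transcripts), while *Klf2* (-1.72 ± 0.49), *Klf5* (-2.82 ± 0.50), and *Tbx3* (-3.22 ± 0.56) fell (10.1% of all). Without OKMS MEF replicate 2, *Tfcp2l1* (FDR = 0.0929) and *Klf2* (FDR = 0.154) did not pass, and *Klf2* was also lost without OKMS E-CAD- 2NG- replicate 1 (FDR = 0.0533). *Tbx3* did not differ detectably by E-CAD (0.90 ± 0.55 in 2NG- and 0.22 ± 0.59 in 3NG- cells) and stayed at 0.697 to 6.14 CPM in all 12 OKMS NG- libraries.

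The epithelial markers, which include the sorted protein's own gene *Cdh1*, summed to 70.7 to 195 CPM in E-CAD- and 653 to 1050 CPM in E-CAD+ NG- cells of OKMS. Of the 25 other pluripotency genes, 11 were higher and 1 lower in E-CAD+ 2NG- cells (1.69% and 0.691% of all), and 11 were higher in E-CAD+ 3NG- cells (1.59% of all). The gene with the smallest p in both gates was *Dppa5a*, which encodes an RNA-binding protein of ESCs, at 3.53 ± 0.46 and 4.62 ± 0.48. The fibroblast markers were at 795 to 1100 CPM in E-CAD- libraries, and their part was not tested.

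**Figure D3:**
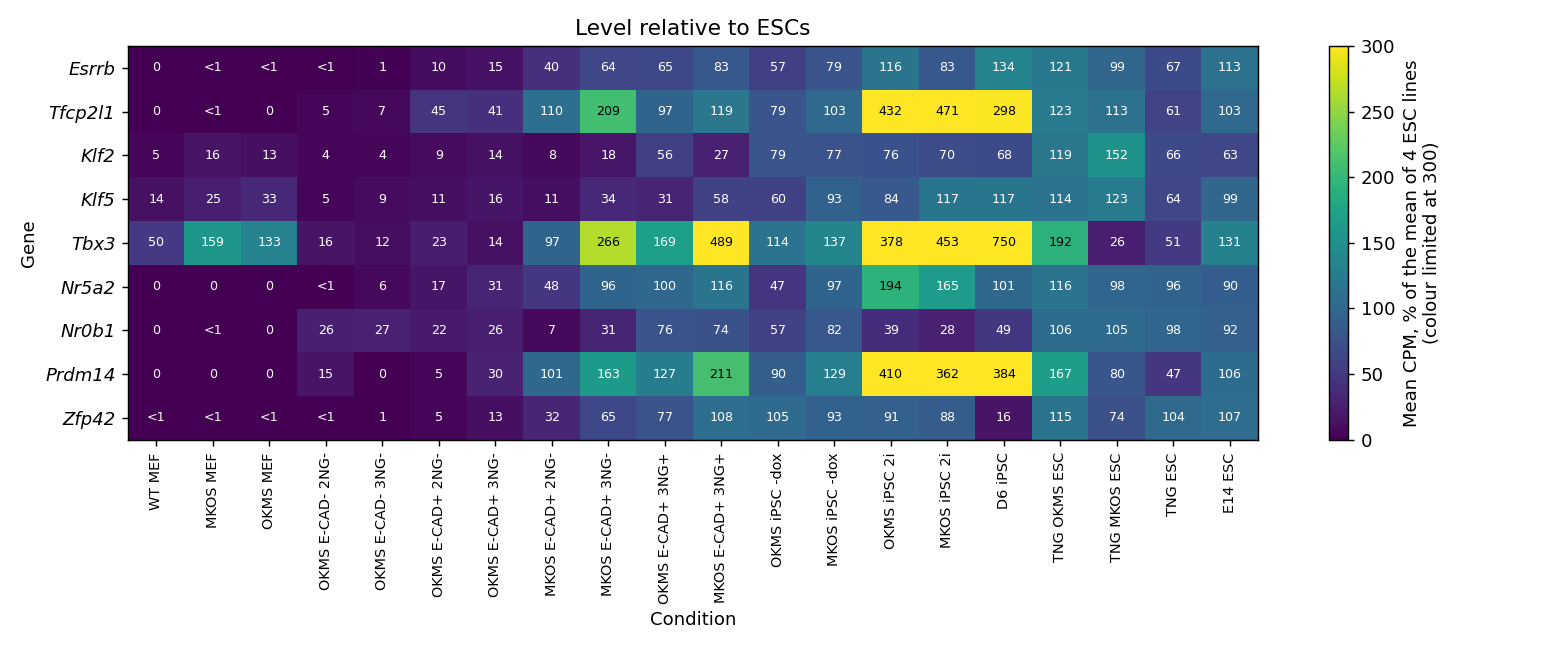
Mean CPM of each factor in each condition as a percentage of the mean of the 4 ESC lines (2 libraries per line), with the percentage printed in each cell and a color scale that saturates for the highest cells. Reading from left to right, MEFs show 0 to 1% for 6 factors, OKMS E-CAD- cells 26% and 27% for *Nr0b1* but 1% or less for *Esrrb* and *Zfp42* after rounding, and 2i cells 432% (OKMS) and 471% (MKOS) for *Tfcp2l1*.

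*Nanog*-GFP+ cells were compared with the *Nanog*-GFP- cells of the same CD44 and ICAM1 gate. In OKMS, *Esrrb*, *Klf2*, *Nr0b1*, *Tbx3*, and *Zfp42* were higher in 3NG+ than in 3NG- cells. These were 5 of 9 factors, against 3.06% of all tested transcripts. All 9 had an unadjusted p below 0.05. Here and elsewhere, the share of all tested transcripts at an unadjusted p below 0.05 was not counted, so such counts have no background. In MKOS, none of the 9 passed by edgeR (1.58% of all tested transcripts did), 4 had an unadjusted p below 0.05, and DESeq2 called *Nr0b1*. The median log2 difference of the 9 factors was 2.21 in OKMS and 0.73 in MKOS.

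*Tbx3* measured 33.8, 24.5, and 23.0 CPM in OKMS 3NG+ libraries and 1.18 to 3.21 CPM in OKMS 3NG- libraries, a 13.6-fold difference (3.77 ± 0.52; FDR = 8.71e-06). *Zfp42* measured 780, 587, and 539 CPM in OKMS 3NG+ cells, 7.01-fold above 3NG- cells (2.81 ± 0.44; FDR = 5.19e-05). *Esrrb* measured 90.2, 88.1, and 98.9 CPM, 5.09-fold higher (2.35 ± 0.38; FDR = 0.000106). None of these 3NG+ libraries overlapped the 3NG- libraries. *Klf2* measured 78.8, 87.4, and 74.7 CPM, 4.67-fold higher (2.22 ± 0.42; FDR = 0.000751), and *Nr0b1* 79.4, 78.3, and 54.7 CPM, 3.41-fold higher (1.77 ± 0.42; FDR = 0.00805). The *Nr0b1* call was lost without OKMS 3NG- replicate 2 (FDR = 0.0628). *Tfcp2l1* (1.45 ± 0.50), *Nr5a2* (1.98 ± 0.77), *Prdm14* (2.21 ± 0.95), and *Klf5* (1.05 ± 0.42) did not pass. Without the 7 libraries, 8 factors passed, with *Tfcp2l1* (2.22), *Nr5a2* (2.86), and *Prdm14* (3.04) added.

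In MKOS, the same step gave 1.43 ± 0.41 for *Nr0b1* (FDR = 0.065), 1.05 ± 0.43 for *Tbx3* (FDR = 0.214), 0.93 ± 0.40 for *Klf5* (FDR = 0.24), and 0.92 ± 0.41 for *Zfp42* (FDR = 0.26). *Esrrb* measured 110, 134, and 113 CPM in MKOS 3NG+ cells, and its difference was 0.57 ± 0.36 (FDR = 0.443). *Klf2* differed by 0.73 ± 0.40, *Prdm14* by 0.56 ± 0.84, and *Nr5a2* by 0.46 ± 0.72. *Tfcp2l1* went from 80.0 to 158 CPM in 3NG- to 57.2 to 76.5 CPM in 3NG+ libraries, a difference of -0.63 ± 0.48 that did not pass (FDR = 0.558).

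The difference between the OKMS and the MKOS step was tested as an interaction. None of the 9 factors passed by edgeR (0.0256% of all tested transcripts did), 5 had an unadjusted p below 0.05, and DESeq2 called *Tbx3* (2.74; FDR = 0.0441). All 9 estimates were above 0, with a median of 1.65, where that of all tested transcripts was 0. The share of all tested transcripts with an estimate above 0 was not counted. They were 2.72 ± 0.66 for *Tbx3* (FDR = 0.156), 2.08 ± 0.69 for *Tfcp2l1* (FDR = 0.412), 1.89 ± 0.58 for *Zfp42* (FDR = 0.355), 1.78 ± 0.52 for *Esrrb* (FDR = 0.301), and 1.49 ± 0.57 for *Klf2* (FDR = 0.518). *Prdm14* had 1.65 ± 1.25, *Nr5a2* 1.52 ± 1.04, *Nr0b1* 0.34 ± 0.58, and *Klf5* 0.13 ± 0.57. A larger step in OKMS was thus not established for any single factor by edgeR. Without the 7 libraries, *Zfp42* (2.39; FDR = 0.014) and *Tfcp2l1* (2.57; FDR = 0.0473) passed.

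The other pluripotency genes gave 13 of 25 higher in OKMS (3.06% of all) and 1 of 25, *Trim28*, in MKOS (0.85 ± 0.22; 0.557% of all were higher). In OKMS the smallest p belonged to *Fbxo15*, an OCT4 target that encodes an F-box protein (2.59 ± 0.37), to *Mybl2*, a cell cycle transcription factor (2.08 ± 0.32), and to *Tcl1* (3.48 ± 0.54). *Nanog*, whose reporter defined the sort, was among the 13 and is no independent result.

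OKMS and MKOS cells were also compared in the 3NG+ gate. Here, none of the 9 factors passed between the cassettes by edgeR or DESeq2 (0.685% of all tested transcripts by edgeR), and *Klf2* and *Tbx3* had an unadjusted p below 0.05. *Klf2* was 74.7 to 87.4 CPM in OKMS and 28.0 to 48.5 CPM in MKOS libraries (1.20 ± 0.40; FDR = 0.172). *Tbx3* was 23.0 to 33.8 CPM in OKMS and 66.1 to 94.9 CPM in MKOS libraries (-1.36 ± 0.44; FDR = 0.154). The ranges of neither gene overlapped between the cassettes. Here and elsewhere, the share of all tested transcripts whose libraries separate in this way was not counted. The 95% intervals were -0.91 to 0.49 for *Esrrb*, -1.14 to 0.45 for *Zfp42*, -0.62 to 0.97 for *Nr0b1*, and -1.07 to 0.83 for *Tfcp2l1*, which leave room for differences of up to about a log2 unit.

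From 3NG+ cells to -dox iPSCs, *Tbx3* fell in MKOS from 66.1 to 94.9 CPM to 29.1 and 14.9 CPM (-1.85 ± 0.51; FDR = 0.0417), against 1.32% of all tested transcripts that fell. This call was lost without any single library of the comparison, with FDR from 0.0552 to 0.346, and *Klf2* at 1.47 ± 0.43 did not pass by edgeR (FDR = 0.0656) and was called by DESeq2 (FDR = 0.0419). In OKMS, none of the 9 factors passed by edgeR or DESeq2 (0.614% of all by edgeR), and *Klf5* had an unadjusted p below 0.05 (0.94 ± 0.45). The -dox libraries of a clone type differed widely from each other. OKMS replicate 1 had 5.98 CPM of *Tbx3*, 0.619 CPM of *Nr5a2*, and 0.825 CPM of *Prdm14*, and replicate 2 had 30.6, 11.9, and 9.98 CPM. In MKOS, replicate 1 was the higher library, with 176 CPM of *Esrrb* against 49.0 CPM in replicate 2.

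In 2i medium, which inhibits MEK and GSK3, *Tfcp2l1*, *Tbx3*, *Prdm14*, and *Nr5a2* had higher means than in -dox medium for both cassettes, as did *Esrrb* and *Klf5*, and *Nr0b1*, *Klf2*, and *Zfp42* had lower means, but none of the 9 factors passed by edgeR. The background was 1.97% of all tested transcripts for MKOS and 0.505% for OKMS, 3 factors had an unadjusted p below 0.05 in each, and DESeq2 called *Tfcp2l1* and *Tbx3* for MKOS and *Tfcp2l1* for OKMS.

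*Tfcp2l1* measured 232 and 294 CPM in MKOS 2i and 86.4 and 28.7 CPM in MKOS -dox libraries (2.14 ± 0.61; FDR = 0.055). With OKMS it measured 228 and 255 CPM in 2i and 23.5 and 65.2 CPM in -dox libraries (2.32 ± 0.62; FDR = 0.0722). All 4 libraries in 2i were above the 4 in -dox medium and above the 8 ESC libraries, whose maximum was 79.8 CPM. *Tbx3* measured 60.1 and 85.1 CPM in MKOS 2i (1.67 ± 0.54; FDR = 0.0996) and 66.4 and 54.8 CPM in OKMS 2i (1.60 ± 0.54; FDR = 0.206). *Prdm14* measured 15.1 and 28.2 CPM in MKOS 2i (1.44 ± 1.04; FDR = 0.585) and 17.8 and 31.3 CPM in OKMS 2i (2.07 ± 1.07; FDR = 0.483), above its ESC maximum of 11.7 CPM. The methods describe medium with LIF for ESCs and do not name 2i, so the ESC maxima may come from another medium. *Nr5a2* in OKMS 2i had 24.3 and 27.8 CPM (1.93 ± 0.92; FDR = 0.442). *Nr0b1* measured 19.5 and 32.6 CPM in MKOS 2i against 109 and 43.1 CPM in -dox medium (-1.59 ± 0.51; FDR = 0.1), and the OKMS difference was -0.66 ± 0.50 (FDR = 0.679). Of the 25 other pluripotency genes, *Utf1*, a chromatin-associated ESC gene, fell in 2i with both cassettes (-3.99 ± 0.62 in MKOS and -4.10 ± 0.62 in OKMS).

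**Figure D4:**
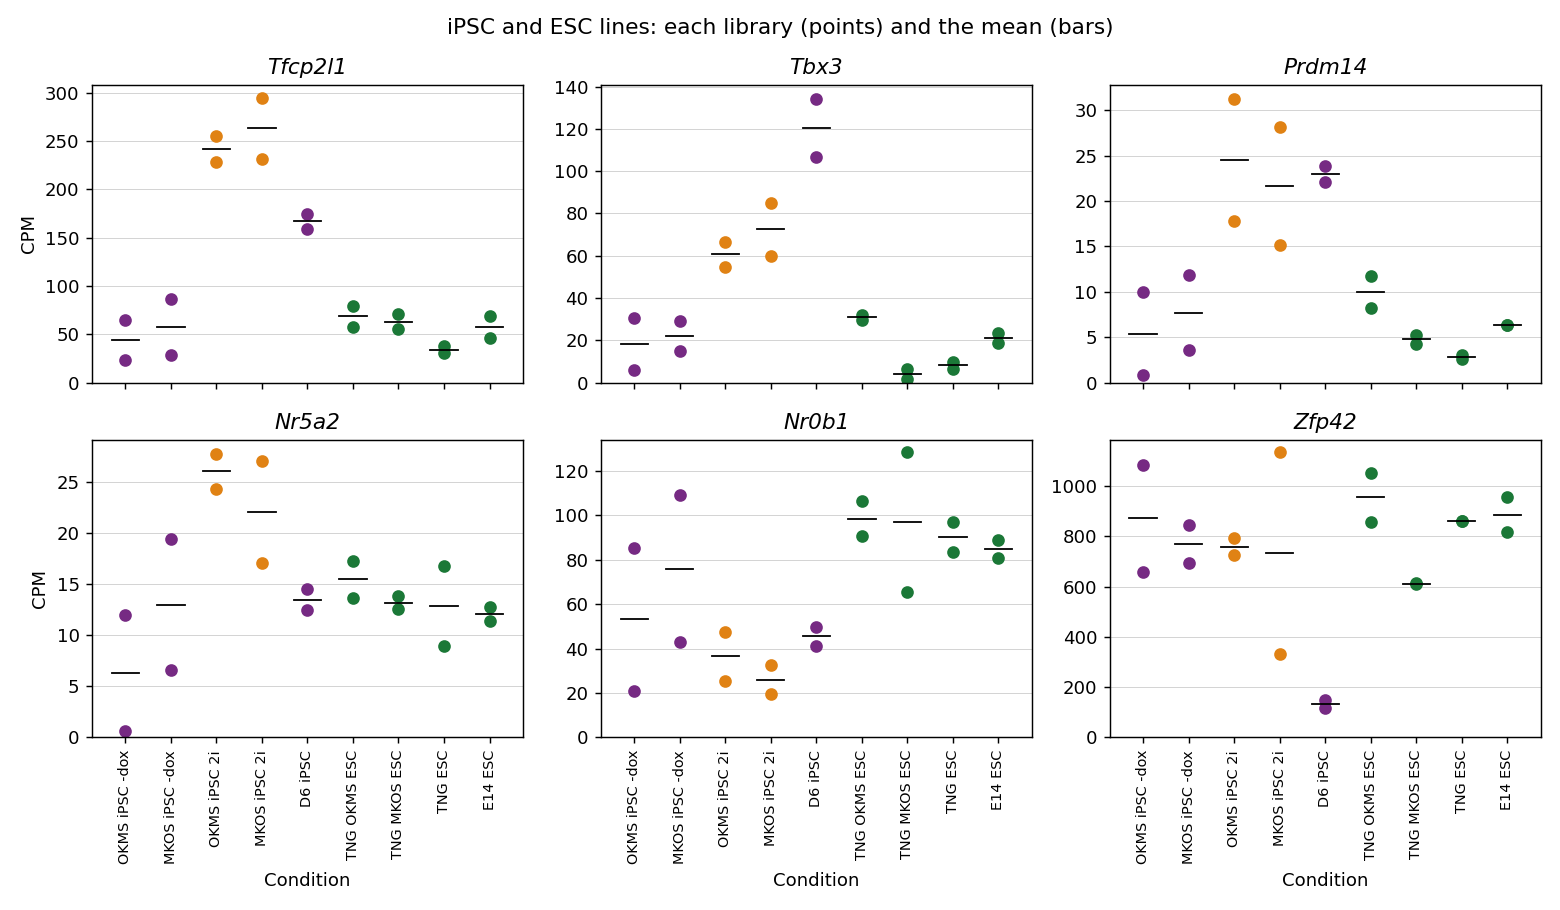
CPM of 6 factors in each library (points) and the mean (bars) of iPSC and ESC conditions with 2 libraries each, on linear axes that start at 0, with 2i in orange, other iPSCs in purple, and ESCs in green. *Tfcp2l1* is between 228 and 294 CPM in the 4 libraries in 2i, and *Zfp42* is at 116 and 147 CPM in D6 against at least 611 CPM in ESCs.

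Between -dox iPSCs and the ESCs with the same cassette, *Tbx3* was higher in MKOS iPSCs (29.1 and 14.9 CPM) than in TNG MKOS ESCs (1.56 and 6.69 CPM), by 2.56 ± 0.58 on the log2 scale (FDR = 0.0317; 0.243% of all tested transcripts were higher). The call was lost without TNG MKOS ESC replicate 1 (FDR = 0.318), TNG MKOS ESC replicate 2 (FDR = 0.0991), or MKOS iPSC -dox replicate 1 (FDR = 0.344). In OKMS, 0 of the 9 factors passed by edgeR (0.608% of all) or DESeq2, and 0 had an unadjusted p below 0.05. These comparisons share the -dox libraries with those above.

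The D6 line was in no comparison and is described by its levels. It had the highest means of the 20 conditions for *Esrrb* (212 and 170 CPM) and *Tbx3* (107 and 134 CPM), and 159 and 174 CPM of *Tfcp2l1*. Its *Zfp42* libraries had 116 and 147 CPM, 15.9% of the ESC mean, where the other 8 iPSC libraries had at least 332 CPM. *Nanog* had a mean of 301 ± 22 CPM in D6 (SD, n = 2) and of 61.9 to 100 CPM in the 4 ESC lines. Of these lines, TNG, TNG MKOS, and TNG OKMS ESCs carry a single intact *Nanog* allele.

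In the remaining comparisons, the 25 other pluripotency genes gave these counts. Between ESCs and MEFs, 21 were higher and 2 lower in the MKOS pair (17.5% and 15.7% of all tested transcripts) and 22 higher and 1 lower in the OKMS pair (18.3% and 16.2%). From MEFs to 2NG- cells, 18 rose and 3 fell in MKOS (15% and 12% of all), 20 rose and 2 fell in OKMS (15.7% and 13.5%), and 16 rose and 2 fell in OKMS E-CAD- cells (11.7% and 10.1%). From 2NG- to 3NG- cells, 5 rose in MKOS (0.352% of all), led by *Gbx2*, *Trim28*, and *Sox2*, and 0 were called in OKMS by edgeR, with 4 at an unadjusted p below 0.05. Both cassettes encode *Sox2*, so its reads may include cassette RNA. Between the cassettes in 3NG+ cells, *Dppa3*, a maternal factor that protects DNA methylation, was higher in OKMS (3.76 ± 0.75; FDR = 0.00707; 0.339% of all were higher). In 2i, 2 fell in MKOS (1.08% of all) and 1 in OKMS (0.365% of all). The interaction, the step from 3NG+ cells to iPSCs, and iPSCs against ESCs gave 0 calls among these genes by edgeR. At an unadjusted p below 0.05 stood 10 for the interaction, 3 in MKOS and 3 in OKMS for the step to iPSCs, and 1 in MKOS and 7 in OKMS for iPSCs against ESCs.

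The order of the 20 condition means was well separated for few neighbors. For *Esrrb*, the ranges of 16 of 19 neighboring pairs overlapped, and the breaks lay between MKOS E-CAD+ 2NG- and OKMS E-CAD+ 3NG- cells, between the 3NG- and the 2NG- cells of OKMS E-CAD+, and between OKMS E-CAD+ 2NG- and OKMS E-CAD- 3NG- cells. *Zfp42* had 13 overlapping pairs of 19, *Tfcp2l1* and *Tbx3* 15, *Nr0b1* and *Prdm14* 17, and *Klf2*, *Klf5*, and *Nr5a2* 18. *Klf2* and *Klf5* had their lowest means in OKMS E-CAD- 2NG- cells, at 5.53 ± 1.98 and 2.99 ± 2.17 CPM (SD, n = 3), below the mean of each group of MEFs.

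Across the 20 condition means of log2 CPM, the factors fell along different profiles. *Esrrb* correlated with *Nr5a2* at a Pearson r of 0.98 and with *Tfcp2l1* and *Zfp42* at 0.97, and *Klf2* with *Klf5* at 0.94. *Tbx3* had r of 0.09 with *Nr0b1* and of 0.70 with *Prdm14*, its closest member. These points share libraries and the contrast of MEFs with ESCs, and the values are descriptions. The 3 tested transcripts most like each factor were *AU018091*, *Gm14139*, and *Gm14393* for *Esrrb* (0.98 to 0.99), *Ildr1*, *Lrrc34*, and *Mtap7* for *Tfcp2l1* (0.97 to 0.99), and *Gm14139*, *Dppa4*, and *Dppa5a* for *Zfp42* (0.97 to 0.98). For *Klf2* they were *Sycp3*, *Plekha4*, and *Dnd1* (0.95 to 0.97), for *Klf5* *Myst4*, *Dlc1*, and *Syce1* (0.92 to 0.95), and for *Tbx3* *Cd38*, *Arih2*, and *Wnk1* (0.88 to 0.94). They were *Gm14393*, *Ooep*, and *Morc1* for *Nr5a2* (0.97), *Pipox*, *Rcc2*, and *Mcm7* for *Nr0b1* (0.98), and *Cdc5l*, *Dnajc6*, and *Akap1* for *Prdm14* (0.95 to 0.98).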

How the data were processed

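RNA was measured in 48 STRT libraries of 20 conditions, made from 10 ng of RNA. Per the methods and the file headers, the authors aligned reads with the STRT pipeline and deposited raw read counts per transcript, with multireads assigned to their most 5′ exonic hit. The submitters' processing notes name Bowtie 0.12.7 and mm10, while the methods name mm9. The file's positions lay 100 bases before the GRCm38 start for 76.7% of the 7834 plus-strand transcripts that could be compared, so gene coordinates here are those of RefSeq GRCm38.p6. Repeats (1554 rows) and spike-ins (104 rows) were left out.

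Counts of 24264 transcripts were filtered with edgeR's filterByExpr (15630 kept), TMM-normalized, and tested by the quasi-likelihood test (edgeR 4.0.16, R 4.3.3) in a single fit over all conditions, with Benjamini-Hochberg adjustment over all tested transcripts. CPM and fold bounds were computed from raw counts. Intervals are at 95% and, like floors of 3 reads summed over a group, cover counting error only where they rest on counts. STRT counts 5′ ends and were not scaled by length. The 9 factors and the marker lists were chosen with earlier results of these data known. Genes named beyond the 9 were those of the lists with the smallest p and the 3 transcripts most like each factor. On counts simulated for OKMS against MKOS 3NG- cells with 200 of 13752 transcripts changed 4-fold, 81 were called, of which 80 were changed. Alternatives were DESeq2 1.42.0, its size factors, no filter, a replicate block, fits without 7 libraries or with only the compared libraries, and leaving out each library in fits that kept the tested transcripts and the dispersion trend.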

Additional observations from a re-analysis of the deposited data

Results flagged for a closer look

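*Tbx3* libraries of ESCs lay on opposite sides of those of MEFs for the 2 cassettes. The log2 difference was -2.72 (edgeR, FDR = 0.000305) between TNG MKOS ESCs and MKOS MEFs, where both ESC libraries were below both MEF libraries, and 0.49 between TNG OKMS ESCs and OKMS MEFs, where both were above but the difference did not pass (FDR = 0.499). The difference between the cassettes was not tested.

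*Tfcp2l1* libraries of 3NG+ cells also lay on opposite sides of those of 3NG- cells, although neither step passed edgeR's test. The log2 difference was -0.63 in MKOS (FDR = 0.558), where each 3NG+ library was below each 3NG- library, and 1.45 in OKMS (FDR = 0.074), where each was above. The interaction was 2.08 ± 0.69 (SE), which did not pass edgeR's quasi-likelihood test after adjustment (FDR = 0.412). *Tfcp2l1* was likewise picked for its arrangement, with 3 libraries per group, and the share of all tested transcripts was not counted.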

How the results depend on the processing

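Of 62 called values, 360 of 372 recomputed values kept direction and call, 12 lost the call, and none reversed. Leaving out 1 library kept 268 of 315 and lost 47. Of the 63 values given in the text that were not called, 76 of 378 recomputed values passed and 9 reversed, and leaving out 1 library passed 7 of 411 and reversed 24. The other values not called were not counted. The causes were not tested.

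The number of factors called, out of 9, moved as follows. With no filter, it was 5 from 2NG- to 3NG- in MKOS (1 as reported) and 1 in OKMS (0), 2 from 3NG- to 3NG+ in MKOS (0) and 9 in OKMS (5), 5 for the interaction (0), 2 between the cassettes in 3NG+ (0), 2 from 3NG+ to iPSC in MKOS (1), and 3 and 2 for 2i in MKOS and OKMS (0). With the replicate block, it was 2 from 2NG- to 3NG- in MKOS, 1 from 3NG- to 3NG+ in MKOS, 2 from 3NG+ to iPSC in MKOS, and 1 for 2i in each. The labels tie the numbers to nothing shared. Same-numbered libraries of different populations had a mean r of 0.081, with 23 of 84 pairs over 0.1 and a maximum of 0.35. Different-numbered ones had a mean of -0.040, with 2 of 168 over 0.1 and a maximum of 0.13. Each population was centered on its own mean, so the different-numbered mean largely follows from the same-numbered one and is no separate contrast. By their own values, some same-numbered libraries shared deviations. The main fit treated the libraries as unpaired, so its p-values for sorted cells do not take shared deviations into account. The replicate block is the fit that does. Without the 7 sorted libraries, it was 2 from 2NG- to 3NG- in MKOS, 8 from 3NG- to 3NG+ in OKMS, 2 for the interaction, 2 for E-CAD in 2NG- (4), 2 from 3NG+ to iPSC in MKOS, and 1 for 2i in each. With the compared libraries alone, it was 3 from 2NG- to 3NG- and 3 from 3NG- to 3NG+ in MKOS, 2 for the interaction, 2 between the cassettes in 2NG- (5) and 2 in 3NG+, 2 for E-CAD in 3NG- (4), 2 from 3NG+ to iPSC in MKOS, and 3 and 4 for 2i in MKOS and OKMS. With DESeq2, it was 2 from 2NG- to 3NG- and 1 from 3NG- to 3NG+ in MKOS, 1 for the interaction, 2 from 3NG+ to iPSC in MKOS, and 2 and 1 for 2i. With DESeq2 size factors, it was 1 for 2i in MKOS.

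Leaving out 1 library gave 0 to 1 from 2NG- to 3NG- in MKOS and in OKMS (1 without OKMS 2NG- replicate 3), 0 to 1 from 3NG- to 3NG+ in MKOS (1 without MKOS 3NG+ replicate 1), 2 to 4 between the cassettes in 2NG- (2 without OKMS replicate 2, 3 without OKMS replicate 1 or MKOS replicate 2), and 2 to 5 for E-CAD in 2NG- (2 without E-CAD+ replicate 3) and in 3NG- (2 without E-CAD- replicate 2 or E-CAD+ replicate 3). It gave 0 to 0 from 3NG+ to iPSC in MKOS, 0 to 1 for 2i in MKOS (1 without -dox replicate 1) and in OKMS (1 without -dox replicate 2), and 0 to 1 for MKOS iPSCs against ESCs.

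Small log2 differences changed sign. *Klf5* was -0.067 for the interaction without the 7 libraries (-0.10 to 0.77 leaving out 1 library) and -0.017 between the cassettes in 2NG- with the replicate block (-0.30 to 0.29). In 3NG+, *Nr5a2* was -0.083 with the replicate block and -0.0052 with DESeq2 (-0.69 to 0.43), *Tfcp2l1* was 0.071 without the 7 libraries (-0.26 to 0.061), and *Nr0b1* ranged from -0.026 to 0.40. For E-CAD in 3NG-, *Nr0b1* was -0.024 with DESeq2 size factors, -0.28 without the 7 libraries, -0.013 with the compared libraries alone, and -0.028 with DESeq2 (-0.16 to 0.33), and *Tbx3* ranged from -0.22 to 1.44. Leaving out 1 library also gave -0.29 to 0.16 for *Nr0b1* by E-CAD in 2NG-, -0.19 to 0.78 and -0.80 to 0.019 for *Klf2* between the cassettes in 2NG- and 3NG-, and -1.32 to 0.62 for *Nr0b1* by 2i in OKMS.

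Values near the 3-read floor, such as those of *Prdm14* and *Nr5a2* in OKMS NG- cells, rest on few reads, and the shallowest library limits the OKMS 3NG+ group.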
